A study of Mus musculus with 8 samples.

Results

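The genes described here are 10 members of 2 mouse gene families, the placental cathepsins *Ctsj*, *Ctsm*, *Ctsq*, *Ctsr*, *Cts6* and *Cts7* and the *Serpinb9* inhibitors *Serpinb9b*, *Serpinb9c*, *Serpinb9e* and *Serpinb9g*. They were picked by symbol for their higher RNA level in day 12 cells than in embryonic stem cells (ESCs), and are 10 of the 26263 genes counted in the series. The choice therefore fixed the direction of that comparison, and the levels of the members in both stages are given below as a description, with no test. The comparison of the reciprocal crosses within the day 12 cells was not used in the choice and was tested.

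RNA-seq of 8 libraries followed *in vitro* corticogenesis, a protocol by which mouse ESCs become neural precursor cells (NPCs), in a study of imprinted expression during neural commitment. All cells were male F1 hybrids of C57BL/6 and JF1 mice. The B/J cells (genotype C57BL/6 x JF1) were line BJE2 and the J/B cells (JF1 x C57BL/6) line JBE6, so that cross and line cannot be told apart. ESCs were kept with LIF, BMP4 and a GSK3-β inhibitor, and NPCs were collected at day 12 in a medium with dorsomorphin homolog 1. There were 2 replicates of each cross at each stage. Nothing in the labels says whether replicates were separate cultures, so the spread between them may be technical, and library kits and sequencers differed without being assigned to libraries. The libraries held 22537138 to 32706015 reads assigned to genes, and levels are given as CPM, the count scaled to a fixed total of such reads per library.

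Placental cathepsins are cysteine proteases of the cathepsin L type that multiplied in rodents, and their RNA is known from trophoblast, the epithelial lineage of the placenta. Cathepsins cut proteins in lysosomes and, when secreted, in the surrounding matrix. *Serpinb9* genes encode clade B serpins, proteins that stay largely inside the cell and trap serine proteases. The best known of them inhibits granzyme B, the protease with which killer lymphocytes start apoptosis, and several of its mouse relatives are read in placenta. Neither family is a marker of neural precursors.

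The members form 2 clusters on chromosome 13 (GRCm39, GENCODE vM39), 27.5 Mb apart. The 6 cathepsins lie within 541.7 kb, all on the minus strand and with 8 exons each in the transcript used here. The 4 *Serpinb9* genes lie within 468.6 kb and have 7 exons each. *Serpinb9c* is on the minus strand and the other 3 are on the plus strand. Coding sequences of the cathepsins were 68.0% to 80.6% identical between pairs (median of 15 pairs 72.3%), the closest pair being *Ctsr* and *Cts6*. Those of the *Serpinb9* genes were 74.6% to 95.3% identical, with *Serpinb9e* and *Serpinb9g* the closest pair. The reads were filtered on mapping quality, which removes many reads that match 2 genes equally well. Of all stretches of 50 bases in the transcript, 0% of those of *Ctsj*, *Ctsq*, *Ctsr*, *Cts6* and *Cts7* were found in another annotated transcript. The share was 25.6% for *Ctsm*, 18.9% for *Serpinb9c*, 28.4% for *Serpinb9e* and 54.9% for *Serpinb9g*, whose counts are therefore uncertain, and 0.5% for *Serpinb9b*.

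Promoter sequences are shown because most members of each cluster had RNA in the same libraries, and because the sequences differ between the families. *Ctsm* and the second start of *Serpinb9c* were searched but are not printed. They come from the RefSeq promoter table (GRCm38.p6), in which all 10 members were found, with 2 starts for *Serpinb9c*. Each window was then located by its single exact match on chromosome 13 of GRCm39. The part printed runs from 150 bases before to 10 after the RefSeq start, 5′ to 3′ on the gene's strand, and capitals mark 3 motifs on either strand, namely TTTAAA and CCAAT and also TGACGTC. The cathepsin windows are on the minus strand, at chr13:61153730-61153889 for *Ctsj*, chr13:61311993-61312152 for *Ctsr*, chr13:61188402-61188561 for *Ctsq*, chr13:61351197-61351356 for *Cts6* and chr13:61506001-61506160 for *Cts7*, the member that was hardly read.
Ctsj: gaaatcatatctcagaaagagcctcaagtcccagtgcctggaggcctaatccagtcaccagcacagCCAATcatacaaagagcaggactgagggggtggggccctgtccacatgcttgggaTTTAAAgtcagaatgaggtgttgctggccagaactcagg
Ctsr: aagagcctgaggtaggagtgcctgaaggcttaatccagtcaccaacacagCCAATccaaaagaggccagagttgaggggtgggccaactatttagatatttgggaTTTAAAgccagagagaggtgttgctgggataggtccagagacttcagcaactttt
Ctsq: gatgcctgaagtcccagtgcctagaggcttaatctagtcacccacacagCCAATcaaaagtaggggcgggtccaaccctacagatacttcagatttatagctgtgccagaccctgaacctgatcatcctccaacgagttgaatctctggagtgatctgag
Cts6: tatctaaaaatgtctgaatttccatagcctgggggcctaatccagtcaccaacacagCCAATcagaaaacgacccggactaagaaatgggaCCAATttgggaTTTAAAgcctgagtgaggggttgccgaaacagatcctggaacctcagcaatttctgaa
Cts7: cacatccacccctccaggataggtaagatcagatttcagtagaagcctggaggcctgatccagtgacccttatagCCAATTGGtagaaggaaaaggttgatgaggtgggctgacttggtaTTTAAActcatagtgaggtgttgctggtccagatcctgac

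The *Serpinb9* windows are at chr13:33211247-33211406 for *Serpinb9b*, chr13:33433441-33433600 for *Serpinb9e* and chr13:33668623-33668782 for *Serpinb9g*, all on the plus strand, and at chr13:33343728-33343887 on the minus strand for the first start of *Serpinb9c*.
Serpinb9b: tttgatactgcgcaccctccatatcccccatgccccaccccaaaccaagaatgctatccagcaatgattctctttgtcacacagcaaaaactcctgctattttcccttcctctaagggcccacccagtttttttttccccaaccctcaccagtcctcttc
Serpinb9c: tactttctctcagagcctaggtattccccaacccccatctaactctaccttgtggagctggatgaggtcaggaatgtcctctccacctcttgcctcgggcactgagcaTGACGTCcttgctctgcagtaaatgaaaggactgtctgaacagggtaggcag
Serpinb9e: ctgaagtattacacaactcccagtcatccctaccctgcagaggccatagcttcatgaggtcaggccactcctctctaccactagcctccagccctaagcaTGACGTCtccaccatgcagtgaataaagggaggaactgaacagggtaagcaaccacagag
Serpinb9g: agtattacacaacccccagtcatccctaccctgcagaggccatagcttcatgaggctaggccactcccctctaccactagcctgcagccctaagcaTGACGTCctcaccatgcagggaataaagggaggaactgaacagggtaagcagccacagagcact

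The 3 motifs were chosen after the sequences were looked at, and were searched on both strands over the full windows of 300 bases. TTTAAA, which is its own reverse complement, was found in 5 of 6 cathepsin windows and in 0 of 5 *Serpinb9* windows, against 13.1% of the 32544 promoters in the table. It began 29 bases before the start in *Ctsj*, 30 in *Cts7*, 38 in *Ctsm*, 45 in *Ctsr* and 48 in *Cts6*, and *Ctsq* was the cathepsin without it. These distances are to the RefSeq start. In *Ctsj* and *Ctsr* the GENCODE gene begins farther upstream, so that the motif lies within it. CCAAT was found in 6 of 6 cathepsin windows (in *Ctsm* 245 bases before the start) and 0 of 5 *Serpinb9* windows, against 37.4% of all promoters. In *Cts7* its matches on the 2 strands overlap. TGACGTC was found in 3 of 5 *Serpinb9* windows (*Serpinb9e*, *Serpinb9g* and the first start of *Serpinb9c*) and in 0 of 6 cathepsin windows, against 3.22% of all promoters. *Serpinb9b* held none of the 3 motifs. Its window was 41.3% to 44.5% identical to those of the other *Serpinb9* members, whereas the windows of *Serpinb9e* and *Serpinb9g* were 93.4% identical. These matches describe related sequences and are not evidence of binding.

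In ESCs, the cathepsins were at or near 0. *Ctsj*, *Ctsq*, *Ctsr* and *Cts6* had 0 counts in all 4 ESC libraries, and of the 24 cathepsin values in ESCs, 19 were 0 and the others added up to 9 reads. A count of 0 allows a level of up to 0.107 to 0.133 CPM in an ESC library of these depths, taking 3 counts as the limit of what can be missed. *Serpinb9c* and *Serpinb9g* had 0 counts in all 4 ESC libraries as well, and *Serpinb9e* had 1 read in J/B replicate 2. *Serpinb9b* was the exception, with 7.80 and 7.22 CPM in the B/J and 5.86 and 7.05 CPM in the J/B ESC libraries.

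*Ctsj*, which encodes cathepsin J (chr13:61147993-61153773), was the most abundant member in NPCs. It was read at 574.9 CPM in B/J replicate 1, 328.6 CPM in B/J replicate 2, 295.5 CPM in J/B replicate 1 and 251.7 CPM in J/B replicate 2 (mean 363 ± 145, SD, n = 4 libraries). B/J replicate 1 stood above the other 3, and both B/J libraries lay above both J/B libraries. Against the ESCs, with 3 counts over the 4 libraries as the floor, *Ctsj* was higher by at least 12818-fold when scaled to library totals. With TMM factors, which correct for composition, the bound was at least 9214-fold.

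*Ctsr* (chr13:61307018-61312070) was read at 67.6 and 26.6 CPM in the B/J and at 26.2 and 21.9 CPM in the J/B NPC libraries. *Ctsq* (chr13:61182838-61188445), whose RNA is known from trophoblast giant cells that line the maternal blood sinusoids, was read at 43.2 and 17.4 CPM in the B/J and at 23.1 and 18.4 CPM in the J/B libraries. For both genes, B/J replicate 1 was well above 3 libraries that lay close together, and for *Ctsq* the crosses overlapped. They were at least 1267-fold (*Ctsr*) and at least 909-fold (*Ctsq*) higher than in ESCs on library totals.

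*Cts6* (chr13:61342946-61351224) and *Ctsm* (chr13:61683557-61689653) were read at a low level. *Cts6* had 2.17 and 1.09 CPM in the B/J and 3.03 and 1.44 CPM in the J/B NPC libraries, and was the only member with its highest level in J/B replicate 1. *Ctsm* had 2.08 and 0.941 CPM in the B/J and 0.948 and 0.429 CPM in the J/B libraries, that is 64, 25, 31 and 11 reads. Against 2 reads in ESCs, *Ctsm* was 59.2-fold higher on library totals (95% counting interval 16.1 to 494), and *Cts6* at least 69.9-fold.

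*Cts7* (chr13:61500275-61506011) showed the pattern for which the members were picked only weakly. Its 3, 9, 8 and 5 reads in the NPC libraries (B/J replicates 1 and 2, then J/B) stood against 3, 1, 1 and 2 in the ESC libraries in the same order. The stages overlapped, since NPC B/J replicate 1 (0.0974 CPM) was below ESC B/J replicate 1 (0.107 CPM). The NPC to ESC ratio of its summed counts was 3.23 on library totals (95% counting interval 1.36 to 8.84) and 2.32 with TMM factors (0.975 to 6.35). *Cts7* was also the 1 member of 10 left out by the filter on low counts, so the tests below cover 9. Of the other 9, all but *Serpinb9b*, which was also read in ESCs, passed that filter through their level in NPCs.

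Among the inhibitors, *Serpinb9e* (chr13:33433595-33444833) had the highest level, with 413.3 and 175.0 CPM in the B/J and 197.1 and 137.5 CPM in the J/B NPC libraries (mean 231 ± 124, SD, n = 4). *Serpinb9g* (chr13:33668773-33679987) was read at 172.6 and 63.2 CPM in the B/J and 77.0 and 50.2 CPM in the J/B libraries, and *Serpinb9c* (chr13:33333258-33343725) at 112.3 and 47.5 CPM in the B/J and 62.9 and 40.2 CPM in the J/B libraries. In all 3, replicate 1 was above replicate 2 in each cross, and the crosses overlapped. On library totals, *Serpinb9g* was at least 3253-fold and *Serpinb9c* at least 2352-fold higher than in ESCs. The single ESC read of *Serpinb9e* gave a ratio of 24716 with a 95% counting interval of 4436 to 976256.

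*Serpinb9b* (chr13:33211399-33225867) was read at 186.5 and 84.4 CPM in the B/J and at 100.5 and 62.6 CPM in the J/B NPC libraries (mean 108 ± 54.3, SD, n = 4), after 6.98 ± 0.814 CPM in ESCs. With 736 reads in ESCs it is the member whose NPC to ESC ratio is known best, at 15.8 on library totals (95% counting interval 14.7 to 17.1) and 11.4 with TMM factors. The ratio on library totals was 18.5 within B/J and 12.9 within J/B.

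Over all genes tested, 69.4% differed between the stages at an adjusted p below 0.05 (edgeR's quasi-likelihood test, 37.5% higher and 31.9% lower in NPCs), and in 46.7% of them the lowest NPC library exceeded the highest ESC library. All 9 members tested met the second criterion, which their choice made likely and from which nothing is read. The members' values in each library are plotted on a log scale.

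**Figure D1:**
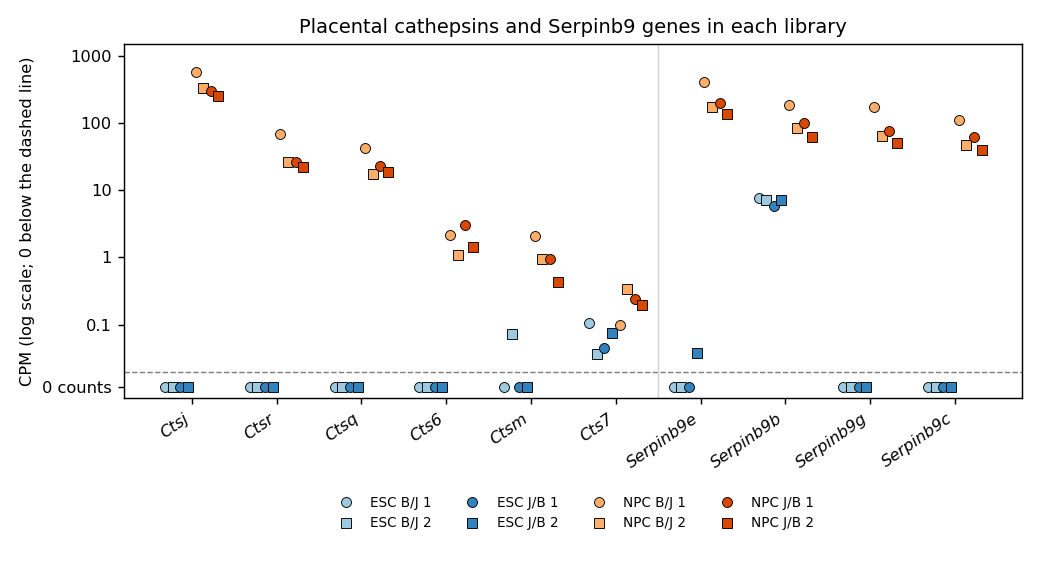
CPM (log scale) of the 10 members in each of the 8 libraries, with 0 counts drawn below the dashed line, ESC libraries in blue and NPC libraries in orange, circles for replicate 1 and squares for replicate 2. Every NPC value except that of *Cts7* in B/J replicate 1 lies above all ESC values of the same gene, and *Serpinb9b* is the only member with an ESC level above 1 CPM.

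Compared per kilobase of coding length, which puts genes of different length on 1 scale, the members spanned a 1642-fold range in NPCs. The mean levels in CPM per kilobase were 362 for *Ctsj*, 204 for *Serpinb9e*, 95.9 for *Serpinb9b*, 80.2 for *Serpinb9g*, 56.6 for *Serpinb9c*, 35.5 for *Ctsr*, 24.8 for *Ctsq*, 1.93 for *Cts6*, 1.10 for *Ctsm* and 0.220 for *Cts7*. Within every NPC library each of them stood above the next, in 4 of 4 libraries. Across libraries, the ranges of neighbours in this order were separate only between *Ctsq* and *Cts6* and between *Ctsm* and *Cts7*. All other neighbours overlapped, since the libraries differed by 2.28-fold (*Ctsj*) to 4.84-fold (*Ctsm*) in the level of a member. The places of *Serpinb9e*, *Serpinb9g*, *Serpinb9c* and *Ctsm* in this order are uncertain for the shared stretches given above.

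Within each family, the order of the abundant members by share was the same in the 4 libraries. Of the cathepsin counts per kilobase, *Ctsj* took 83.4%, 87.8%, 84.8% and 85.7% in the B/J and J/B replicates 1 and 2 (mean 85.4 ± 1.81%, SD, n = 4), *Ctsr* 7.97 ± 1.24% (7.09% to 9.81%) and *Ctsq* 5.79 ± 0.865% (4.52% to 6.45%). The shares of the low members varied more for their size, that of *Cts6* from 0.291% in B/J replicate 2 to 0.869% in J/B replicate 1 and that of *Cts7* from 0.0143% to 0.0912%. Of the *Serpinb9* counts per kilobase, *Serpinb9e* took 46.8 ± 1.06%, *Serpinb9b* 22.2 ± 0.935%, *Serpinb9g* 17.9 ± 1.12% and *Serpinb9c* 13.1 ± 0.789%. The summed level meanwhile differed by 2.35-fold between NPC libraries for the cathepsins and by 3.05-fold for the *Serpinb9* members.

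**Figure D2:**
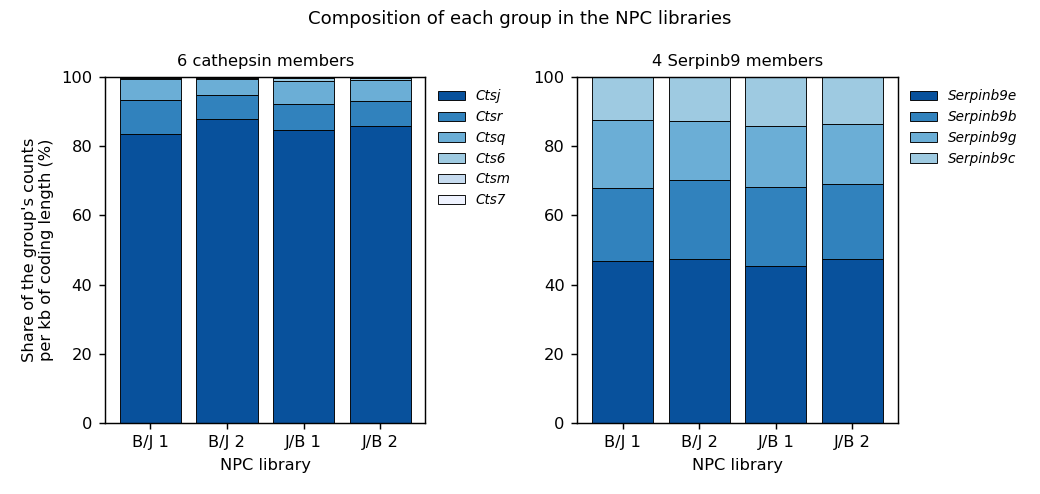
Share of each member in the counts per kilobase of coding length of its family (percent), for the 4 NPC libraries (B/J and J/B, replicates 1 and 2). *Ctsj* fills 83.4% to 87.8% of the cathepsin bars and *Serpinb9e* 45.2% to 47.5% of the *Serpinb9* bars.

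The inhibitors outweighed the cathepsins in replicate 1 of both crosses. The ratio of summed *Serpinb9* counts to summed cathepsin counts was 1.28 in B/J replicate 1 and 1.25 in J/B replicate 1, against 0.987 in B/J replicate 2 and 0.988 in J/B replicate 2 (mean 1.13 ± 0.162, SD, n = 4). The means were 1.13 in B/J and 1.12 in J/B, a difference within the spread between replicates, and no test is given, since an exact two-sided permutation test of 2 libraries against 2 cannot go below 0.333. All 9 members tested were higher in replicate 1 than in replicate 2 in both crosses, as were 30.5% of all genes tested, by 1.75-fold to 2.73-fold in B/J and by 1.17-fold to 2.21-fold in J/B. B/J replicate 1 was the highest of the 4 NPC libraries for 8 of the 9, against 29.0% of all genes. The 9 members share these libraries and 2 loci and are not independent of each other.

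To ask whether the members differ between the reciprocal crosses, J/B was compared with B/J in NPCs by edgeR's quasi-likelihood test over all 16399 genes tested. No member passed an adjusted p of 0.05, and 0 passed an unadjusted p of 0.05, whereas 6.40% of all genes did. Only 1 gene of 16399 (0.00610%) passed the adjusted threshold, the X-linked long non-coding RNA gene *Firre*, named after its values were seen, at 154.6 and 143.7 CPM in the B/J and 16.9 and 14.0 CPM in the J/B NPC libraries. DESeq2 called 70 genes and limma-voom 1, with no member among them, and at an unadjusted p below 0.05 each of these 2 tools had 1 member.

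The estimates for the members lay mostly below 0, that is lower in J/B. *Ctsj* had a log2 fold change of −0.78 (standard error 0.315, 95% interval −1.56 to 0.00082, adjusted p = 0.770), the narrowest interval of the 9. The estimate was −1.03 for *Ctsr* (adjusted p = 0.770), −0.61 for *Ctsq* (0.853), −1.18 for *Ctsm* (0.843) and 0.40 for *Cts6* (0.951). For the inhibitors it was −0.87 for *Serpinb9e*, −0.79 for *Serpinb9b*, −0.95 for *Serpinb9g* and −0.69 for *Serpinb9c* (adjusted p = 0.770 to 0.830). In all, 8 of 9 were below 0, as were 48.7% of all genes, and the median was −0.79 against 0.01 over all genes. Both B/J libraries lay above both J/B libraries for 2 of 9 members, *Ctsj* and *Ctsr*, and for 18.6% of all genes, and with TMM-normalized CPM for *Ctsm* as well. The opposite order was found for 0 members and for 21.1% of all genes.

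B/J replicate 1 set much of these estimates. Without it, the median of the 9 members was −0.09, with 6 of 9 below 0, and *Ctsq* (0.21) and *Serpinb9c* (0.08) turned to the other sign. Without B/J replicate 2 the median was −1.28, and without J/B replicate 1 it was −1.19, with *Cts6* below 0 in both, at −0.05 and −0.27. Differences of the size estimated could not be told from the spread between replicates, and with 2 libraries a cross they would seldom pass the test, so that missing the threshold does not show equal levels.

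**Figure D3:**
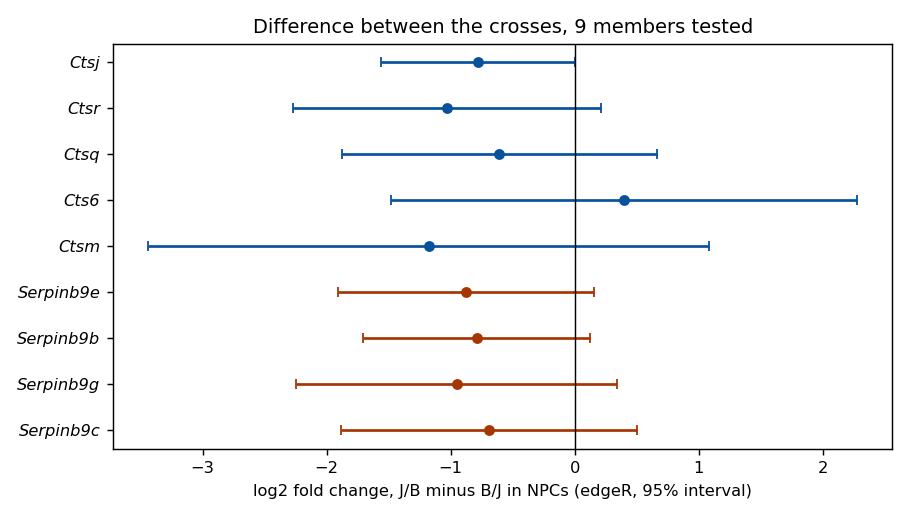
Log2 fold change of J/B against B/J in NPCs with its 95% interval from edgeR for the 9 members tested (cathepsins in blue, *Serpinb9* genes in brown), with 0 marked by a line. Intervals of all 9 cross 0, and that of *Ctsj* ends at 0.00082.

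Other genes at the same loci, which the choice did not name, were compared between the stages. This is the contrast by which the members were picked, the lists were drawn up with its results known, and genes with 0 counts in ESCs were tested only through their level in NPCs, so the calls below describe the loci and are not independent support. Of the 9 other genes counted in the cathepsin cluster, 7 were tested and 6 were higher in NPCs, with 0 lower, where 37.5% of all genes were higher and 31.9% lower. They include *Cts3* and *Cts8*, from a list of 3 further placental cathepsins. *Cts3*, which shares sequence with *Ctsm*, reached 1.79 ± 0.790 CPM (SD, n = 4) from 0 counts in ESCs (at least 45.5-fold with TMM factors, adjusted p = 0.000759). The third, *Ctsll3*, had 9 reads in NPCs and 0 in ESCs and was not tested.

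At 1 end of the cathepsin cluster lie *Tpbpa* and *Tpbpb*, named after their values were seen. *Tpbpa*, the classical marker of spongiotrophoblast, reached 272 ± 129 CPM and *Tpbpb* 32.0 ± 10.8 CPM from 0 counts in ESCs. Beside them are *Ctla2a* and *Ctla2b*, whose products resemble the inhibitory propeptide of cathepsins. *Ctla2a* rose from 0.0333 ± 0.0666 to 23.8 ± 14.3 CPM (log2 fold change 9.97, standard error 0.770, adjusted p = 6.7e-05 from edgeR), and *Ctla2b* to 4.2 ± 3.54 CPM (8.12, 0.947, adjusted p = 0.000331). *4930486L24Rik*, the gene of the 7 that did not pass, had 0.438 CPM in ESCs and 0.881 CPM in NPCs.

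In the *Serpinb9* cluster, taken here from *Serpinb1a* to *Serpinb6a*, 12 of 16 other genes were tested. Of these, 7 were higher and 4 lower, where 37.5% of all genes were higher and 31.9% lower. The 4 other *Serpinb9* genes were among those higher (4 of 4 tested, against 37.5% of all genes). *Serpinb9f* reached 51.3 ± 28.6 CPM and *Serpinb9d* 22.7 ± 14.1 CPM from 0 counts in ESCs (at least 1312-fold and at least 588-fold with TMM factors, adjusted p = 4.8e-05 and 6.6e-05 from edgeR). *Serpinb9*, the granzyme B inhibitor of the family, rose from 1.03 ± 0.375 to 24.8 ± 13.1 CPM (log2 fold change 4.07, standard error 0.424, adjusted p = 0.000115), and *Serpinb9h* from 0.0382 ± 0.0301 to 2.88 ± 2.47 CPM (5.76, 1.02, adjusted p = 0.00153). The median log2 fold change of the 4 was 8.85, or 7.48 with the genes at 0 in ESCs set to their lower bound, against 0.17 over all genes. *Serpinb9d*, *Serpinb9f* and *Serpinb9h* share sequence with *Serpinb9e* and *Serpinb9g*, so part of their reads may be exchanged.

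The 4 genes called lower, a share near that of all genes (31.9%), were *Serpinb1a*, *Serpinb6c*, *Serpinb6a* and *Nqo2*. All of them lay outside the stretch from *Serpinb9b* to *Serpinb9g*. *Serpinb6b*, next to *Serpinb9*, rose from 0.129 ± 0.0778 to 126 ± 76.5 CPM (log2 fold change 9.48, standard error 0.474, adjusted p = 1.2e-05), whereas *Serpinb1a*, at the edge of the cluster, fell from 8.60 ± 6.93 to 1.33 ± 0.464 CPM (−3.17, 0.526, adjusted p = 0.00110). *Serpinb1b*, which lies between *Serpinb9b* and *Serpinb9c*, had 33 reads in ESCs and 22 in NPCs and did not pass (adjusted p = 0.183). On the far side, *Serpinb6c* fell from 12.9 ± 3.41 to 1.05 ± 0.252 CPM (−4.09, 0.358, adjusted p = 5.6e-05).

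**Figure D4:**
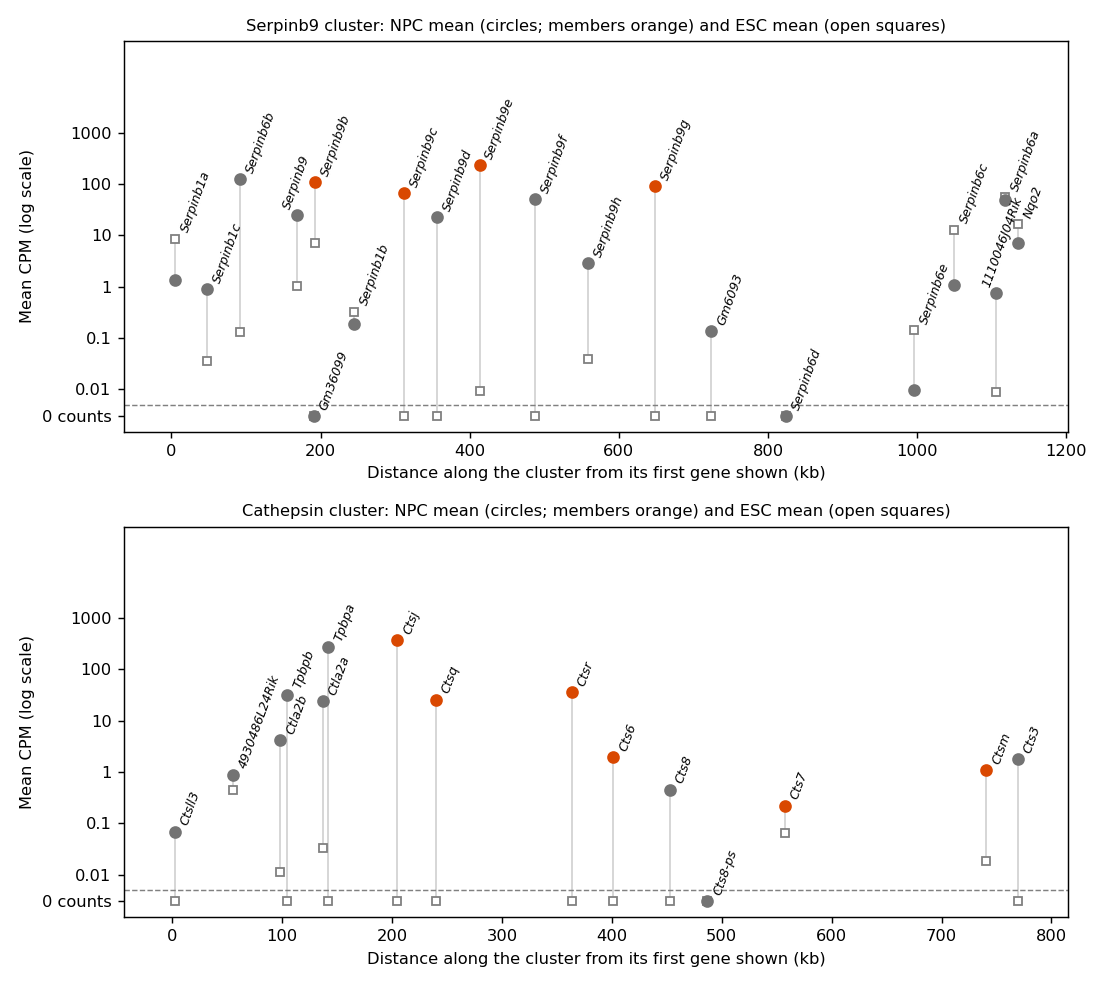
Mean CPM (log scale) in NPCs (circles, members in orange and other genes in grey) and in ESCs (open squares) of the genes counted in the *Serpinb9* and cathepsin clusters, by distance in kb from the first gene shown, with 0 counts drawn below the dashed line. *Tpbpa* and *Ctsj* are the highest points of the cathepsin cluster at 272 and 363 CPM, and *Serpinb1b*, between orange points, stays below 1 CPM at both stages.

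Across the wider pathway, a list of 15 cathepsin genes outside the placental group, legumain included, was compared between the stages. They are called widely expressed cathepsins below. Of 13 tested, 7 were higher, 3 lower and 3 did not pass, where 37.5% of all genes were higher and 31.9% lower. The median log2 fold change was 0.76, against 0.17 over all genes. *Ctsb*, a lysosomal cysteine protease, rose from 82.0 ± 11.5 to 550.3 ± 151.6 CPM (log2 fold change 2.25, standard error 0.191, adjusted p = 5.0e-05 from edgeR). *Lgmn*, which encodes the asparaginyl endopeptidase that matures other cathepsins, rose from 15.0 ± 2.13 to 111.9 ± 25.8 CPM (2.41, 0.221, adjusted p = 6.6e-05). The aspartic protease gene *Ctsd* (0.76, adjusted p = 0.010) and *Ctsl* (0.59, adjusted p = 0.00595), the gene of cathepsin L, rose less. *Ctso* had the largest rise of the list (5.59, adjusted p = 1.9e-05), to 9.88 to 11.8 CPM in the NPC libraries.

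Of the 3 lower genes, *Ctsw* fell most (−4.84, adjusted p = 0.00146 from edgeR). It passed also with scaling to *Gapdh*, *Gusb* and *Tbp* (−4.21, adjusted p = 0.00403). The exopeptidase genes *Ctsz* (−0.82, adjusted p = 0.00106) and *Ctsc* (−1.06, adjusted p = 0.0291) fell less. With scaling to *Gapdh*, *Gusb* and *Tbp* neither call held, at −0.18 (adjusted p = 0.281) and −0.41 (0.303), and this scaling moved the median of all genes from 0.17 to 0.80. The call of *Ctsc* was also lost with library totals (−0.57, adjusted p = 0.172), with limma-voom (0.0501), with a replicate block within each stage (0.0706, added after seeing the data), and without ESC B/J replicate 2 (0.090), ESC J/B replicate 1 (0.10), NPC B/J replicate 2 (0.0845), NPC J/B replicate 1 (0.0846) or NPC J/B replicate 2 (0.0563).

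Among 12 cystatins, stefins and *Ctla2* genes, which inhibit cysteine cathepsins, 6 were tested. Of these, 4 were higher and 0 lower, where 37.5% of all genes were higher and 31.9% lower. Their median log2 fold change was 4.90, against 0.17 over all genes. Those of the 4 with at least 1 CPM were *Ctla2a* and *Ctla2b*. Of 20 clade B serpins outside the *Serpinb9* group, 7 were tested, with 3 higher and 3 lower, shares near those of all genes (37.5% and 31.9%), and a median of −0.69. Besides *Serpinb6b*, *Serpinb8* rose, to 1.62 ± 0.534 CPM (log2 fold change 4.2, standard error 0.922, adjusted p = 0.00432). *Serpinb6a* went from 55.0 ± 8.54 to 48.6 ± 14.6 CPM and fell relative to the other genes (−0.69, adjusted p = 0.00924), but not with library totals (−0.21, adjusted p = 0.281) or scaling to *Gapdh*, *Gusb* and *Tbp* (−0.06, adjusted p = 0.766).

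Granzymes, of which granzyme B is inhibited by the product of *Serpinb9* itself (not a member), had few or no reads except for *Gzmm*. Of 11 granzyme and perforin genes, *Gzma*, *Gzmg* and *Prf1* had 0 counts in all 8 libraries, *Gzmb* had 1 read in all, and 1 gene of 11 was tested. This was *Gzmm*, with 187 reads in ESCs and 414 in NPCs (1.80 and 3.59 CPM, log2 fold change 0.49, adjusted p = 0.276). It passed with library totals (0.98, adjusted p = 0.0461) and with scaling to *Gapdh*, *Gusb* and *Tbp* (1.14, adjusted p = 0.0286).

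The summed level of trophoblast markers was highest, and that of neural precursor markers lowest, in the NPC library with most RNA of the members. The summed level of the members was 1575 CPM in B/J replicate 1, 745.0 in B/J replicate 2, 786.4 in J/B replicate 1 and 584.5 in J/B replicate 2, after 5.90 to 7.90 CPM in ESCs. Of 7 neural precursor markers, 6 were higher in NPCs, as were 37.5% of all genes. The sum of the 7 was lowest in B/J replicate 1, with 143.5 CPM there, 363.9 in B/J replicate 2, and 584.6 and 587.0 CPM in the J/B replicates. Pluripotency markers summed to 40.8 to 149.6 CPM in NPCs against 2374 to 3740 CPM in ESCs. Markers of the labelled cell type were thus present in all 4 NPC libraries, beside RNA that neural precursors are not known for. In bulk RNA, fewer cells of a type and less RNA per cell cannot be told apart.

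The 4 spongiotrophoblast and glycogen cell markers (4 of 4 higher in NPCs, as were 37.5% of all genes) summed to 692.0, 305.2, 384.9 and 247.6 CPM in the NPC libraries (B/J replicates 1 and 2, then J/B) and to 0.976 to 4.68 CPM in ESCs. The 4 trophoblast giant cell markers (4 of 4 higher) summed to 119.6, 74.2, 82.8 and 50.8 CPM, and to 0.107 to 2.66 CPM in ESCs. The 6 trophoblast progenitor markers (4 of 6 higher) summed to 828.7, 473.6, 310.1 and 311.6 CPM, and to 60.6 to 138.1 CPM in ESCs. *Tfap2c* was the most abundant of the 6 at day 12, with 218.7 CPM on average. It was already read at 78.3 CPM in ESCs and did not pass between the stages (adjusted p = 0.0520 from edgeR). *Eomes* did not pass either (0.195). The 3 syncytiotrophoblast markers (2 of 2 tested higher) summed to 8.19 to 26.0 CPM in NPCs and 0.142 to 0.532 CPM in ESCs. Each of these sums was highest in B/J replicate 1, as was that of the members, but not every gene in them followed. *Prl3d1* (mean 0.622 CPM in B/J and 5.86 in J/B) and *Prl2c2* (6.67 and 13.5) of the giant cell list were higher in both J/B libraries than in both B/J libraries, and *Eomes* of the progenitor list had means of 11.4 and 24.2 CPM, none of them past the test between the crosses (adjusted p = 0.734, 0.770 and 0.836 from edgeR).

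Markers of other cells of a conceptus or its surroundings had calls in both directions, where 37.5% of all genes were higher and 31.9% lower. The decidual prolactin *Prl8a2* had 2 reads over the NPC libraries. Of 4 decidual markers tested, 1 was higher (*Hand2*, adjusted p = 0.0391 from edgeR) and 2 were lower, and the 5 of the list summed to 4.06 to 7.41 CPM against 5.16 to 11.1 CPM in ESCs. The adult globin genes *Hba-a1*, *Hba-a2*, *Hbb-bs* and *Hbb-bt* had 0 counts in every library. The embryonic globin genes *Hba-x*, *Hbb-bh1* and *Hbb-y* had 39, 37 and 30 reads in NPCs and 0 in ESCs, and all 3 were higher (adjusted p = 0.0114, 0.0285 and 0.0304 from edgeR), with at most 1.43 CPM in a library for the 7 globin genes together. The 7 lymphoid and myeloid markers (2 of 2 tested lower) summed to 9.02 to 13.1 CPM in NPCs against 12.0 to 15.5 CPM in ESCs, and *Ptprc*, the pan-leukocyte marker, had 4 reads in NPCs. The 5 yolk sac endoderm markers summed to 0.941, 2.60, 6.51 and 16.7 CPM in the same order of libraries, lowest in B/J replicate 1. Of 4 tested, 1 was higher, *Ttr*, with 365 reads in NPCs and 0 in ESCs (up to 12.5 CPM, adjusted p = 0.0153 from edgeR), and 1 was lower. The part of any of these cell types in the levels of the members was not tested.

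**Figure D5:**
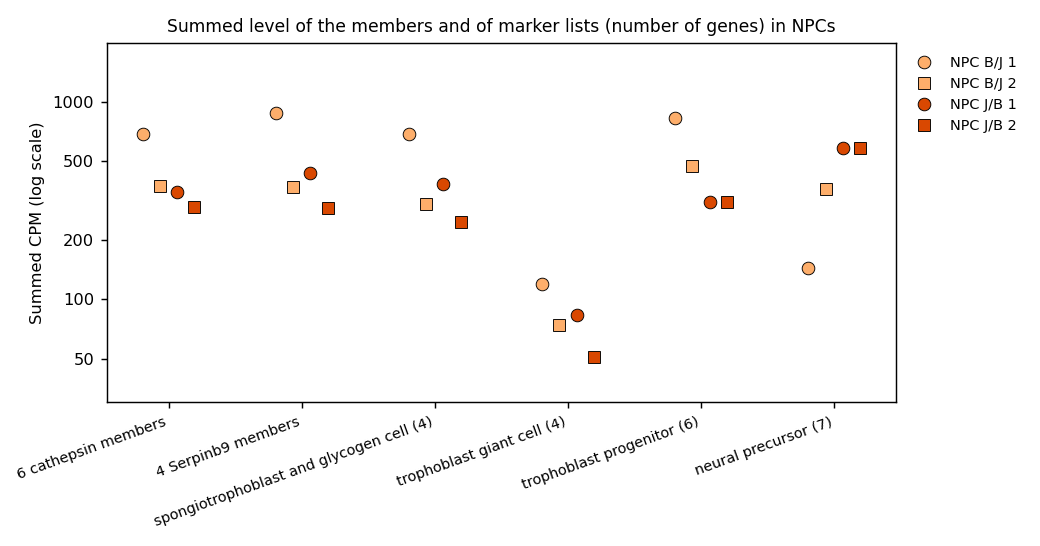
Summed CPM (log scale) of the 6 cathepsin members, the 4 *Serpinb9* members and 4 marker lists in each NPC library (B/J lighter and J/B darker, circles for replicate 1 and squares for replicate 2). B/J replicate 1 is the highest point of the members and of the 3 trophoblast lists and the lowest of the neural precursor list, at 143.5 CPM.

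Outside the members, the 5 genes whose profile was most like the mean log2 profile of the 9 members over the 8 libraries were *Gp1bb* (Pearson r = 0.9998), *Serpinb9f* (0.9996), *Prl7c1* (0.9994), *Olr1* (0.9994) and *Prl3b1* (0.9993), among 14285 genes with at least 1 CPM in NPCs. These r values describe 8 points that fall into 2 stages and mostly reflect the step between them, since 201 genes had an r above 0.99. *Olr1* was read at 84.6 and 46.1 CPM in the B/J and 40.0 and 31.0 CPM in the J/B NPC libraries, and *Prl3b1*, a placental lactogen gene, at 74.1, 44.3, 43.6 and 29.4 CPM in the same order. The 26 genes of the placental prolactin family summed to 1151, 691.5, 818.8 and 596.6 CPM in these libraries, in the same order of libraries as the members. The 13 genes of the pregnancy-specific glycoproteins did not follow this order, with 256.1, 197.9, 242.2 and 235.2 CPM and B/J replicate 2 lowest. Between the crosses the median log2 fold change of the prolactin family was 0.01 over 21 genes tested. Medians below that of the members (−0.79) were found for the spongiotrophoblast and glycogen cell (−1.25), trophoblast progenitor (−1.15) and syncytiotrophoblast markers (−1.04). They were also found for the cathepsin inhibitors (−0.91) and for markers of red blood cells (−1.65), pluripotent cells (−1.37) and decidua (−1.03).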

How the data were processed

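RNA-seq counts of ESCs and NPCs at day 12, from 2 reciprocal crosses with 2 replicates each, were analysed. The authors aligned read pairs by TopHat2 to mm39, masked at strain SNPs, with a refGene-based annotation, and kept proper pairs above a mapping quality filter. The deposited values are raw counts of reads per gene, not split by allele. The submitters' processing notes also name HTSeq, DESeq2 and edgeR. The sources used here name no versions and do not say how counting used the strand. Closing entries of each table (no feature, ambiguous and the like) were left out of the totals, of which reads without a feature made up 5.76% to 10.9% and ambiguous reads at most 0.554% of all entries.

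The members and the gene lists were chosen with earlier results of these data known. Counts were fitted in R 4.3.3 with edgeR 4.0.16 (TMM, filterByExpr with a minimum count of 10, robust quasi-likelihood, 4 group means, all 8 libraries), with Benjamini-Hochberg adjustment over 16399 genes and a threshold of 0.05. limma 3.58.1 and DESeq2 1.42.0 were alternatives, beside scaling by RLE factors, by *Gapdh*, *Gusb* and *Tbp* or by library totals, other filters, a replicate block, only the NPC libraries and each library left out in turn. The tests were tested on simulated data, in which differences between the crosses as small as those estimated for the members were rarely or never called. A count of 0 was given a limit of 3 counts, and intervals at the 95% level of ratios of counts are exact and cover counting error only. Log2 CPM used a prior count of 2. Replicates of a group differed by more than sampling noise (chi-square per degree of freedom 64.5 to 90.7), so none was taken for a library deposited more than once, which does not show that they were separate cultures.

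Named were all 10 members, genes of the fixed lists past the threshold with at least 1 CPM at either stage (at most 6 a list by mean CPM), the 5 genes most like the members, and *Gapdh*, *Gusb* and *Tbp*. Others were named after their values were seen. *Gapdh* went from 4376 ± 558 to 2270 ± 316 CPM, *Gusb* from 13.2 ± 3.52 to 22.2 ± 9.31 CPM and *Tbp* from 42.4 ± 6.22 to 36.6 ± 3.57 CPM between ESCs and NPCs. Allelic expression and protein sequences were not analysed here.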

Additional observations from a re-analysis of the deposited data

Results flagged for a closer look

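The level of *Ctsr* in NPCs was 67.6 CPM in B/J replicate 1, far above the 26.6 CPM of the next library and the 21.9 CPM of the lowest, a gap of 0.898 of the whole range over 4 libraries. In ESCs, the 2 reads of *Ctsm* in B/J replicate 2 (0.0730 CPM) and the single read of *Serpinb9e* in J/B replicate 2 (0.0377 CPM) stood apart from 3 libraries with 0 counts each, which is a difference of 1 or 2 reads. A set of 3 zeros and 1 count above 0 stands out whatever the count, so nothing is read from these. In all, 20 sets of 4 libraries with differing values were examined. Chance alone gives about 1 in 20 where values are not tied at 0, and the sets share their libraries.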

How the results depend on the processing

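The NPC levels of all 10 members moved by less than 1 SD with TMM-normalized CPM, as did the *Ctsj* share with raw counts (85.3%) and the *Serpinb9* to cathepsin ratio per kilobase (0.997). With a library left out, the share ran from 84.7% to 86.1% and the ratio from 1.08 to 1.17, which says nothing of stability, since leaving out 1 of 4 values cannot move their mean by as much as 1 SD. Of the differences of members between the crosses, 147 of 151 kept their sign and 0 passed the threshold in any alternative. The exceptions came with a library left out, without NPC B/J replicate 1 for *Ctsq* (range over libraries left out −1.15 to 0.21) and *Serpinb9c* (−1.21 to 0.078), and without NPC B/J replicate 2 (−0.05) or NPC J/B replicate 1 for *Cts6* (−0.27 to 0.997). The smallest adjusted p of a member ran from 0.132 to 1 over the alternatives. *Cts6* and *Ctsm* could not be fitted when genes averaging under 1 CPM were dropped. The number of genes called between the crosses was 1, with 70 for DESeq2, 0 for library totals, 5 without the low-count filter, 0 for only the 4 NPC libraries and 0 to 1 with a library left out. With a replicate block it was 0, and with a replicate block within each stage, added after seeing the data, 4. The deviations of same-numbered libraries correlated at 0.587 between the crosses in NPCs and 0.518 in ESCs, and at 0.049 to 0.091 between the stages. The labels do not say that a number marks a shared batch or day, and each comparison holds only 2 numbers, so they were not taken to pair the samples. The block changed no call of a member, with adjusted p of *Ctsj* at 0.407, and at 0.151 within each stage. Genes called between the stages numbered 10010 to 12010 against 11378. When genes averaging under 1 CPM were dropped, so that fewer were tested, 2 cathepsin inhibitors, 1 other clade B serpin and 0 other placental cathepsins were higher in NPCs. With scaling to *Gapdh*, *Gusb* and *Tbp*, 1 widely expressed cathepsin was lower in place of 3 and 1 granzyme was higher, as with library totals (1), a scaling that moved the median of all genes to 0.65. Depth limits *Cts7* and *Ctsm*, with at most 9 and 64 reads in a library.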
